A study of Mus musculus with 6 samples.

Results

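The genes described here encode the phagocyte NADPH oxidase and the superoxide dismutases. They are 8 of the 54532 genes in the deposited table and were taken by their symbols: Cybb, Cyba, Ncf1, Ncf4, Rac1 and Rac2 for the oxidase, and Sod1 and Sod2 for the dismutases. All 8 passed the filter on low values, and each lay above it in every library. The study asked what metformin, a drug for type 2 diabetes, does to the early response of macrophages to LPS, the lipopolysaccharide of Gram-negative bacteria. Its RNA-seq comprised 6 poly-A libraries of primary bone-marrow-derived macrophages (BMDMs) of wildtype C57BL/6 mice, in 3 groups of 2. The first group was untreated (Untr). The second received 100 ng/ml LPS for 2 h (LPS). The third received 5 mM metformin for 6 h before the same LPS stimulation (Met + LPS). All BMDMs had been grown in medium conditioned by L929 cells, and the age of the mice is not given in the sources used here. No library received metformin without LPS. The cells were seeded in duplicate, and nothing says that the duplicates came from separate animals, so the p-values measure only the spread between these libraries, which may be technical.

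In phagocytes, gp91phox (Cybb) and p22phox (Cyba) sit together in the membrane as a flavocytochrome, which passes electrons from NADPH to oxygen and so makes superoxide. It is idle until cytosolic subunits, among them p47phox (Ncf1) and p40phox (Ncf4), and a GTP-bound Rac join it. Inherited loss of a subunit causes chronic granulomatous disease, in which phagocytes ingest microbes but kill some of them poorly. Superoxide dismutases convert superoxide into hydrogen peroxide: Sod1, a copper-zinc enzyme, mainly in the cytosol, and Sod2, a manganese enzyme, in the mitochondrial matrix. Sod2 is a textbook target of NF-kappaB.

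Between the untreated and the LPS libraries, Sod2 and Cybb rose and their partner genes Sod1 and Cyba did not. The 250 bases before the RefSeq start sites of these 4 genes are therefore shown, on the gene's strand and in GRCm38.p6. Capitals mark matches, on either strand, to the letters GGGCGG (GC box), CCAAT (bound by NF-Y), TATAAA (a core promoter element), TGANTCA (AP-1) and GAGGAA (PU.1). They also mark GGG and TTTCC with any 2 bases between (NF-kappaB), and GAAA repeated after any 2 bases (interferon-stimulated response element). The windows lie at chrX:9469325-9469574 on the minus strand (Cybb), chr8:122432941-122433190 on the minus strand (Cyba), chr17:13007589-13007838 on the plus strand (Sod2) and chr16:90220512-90220761 on the plus strand (Sod1).
Cybb: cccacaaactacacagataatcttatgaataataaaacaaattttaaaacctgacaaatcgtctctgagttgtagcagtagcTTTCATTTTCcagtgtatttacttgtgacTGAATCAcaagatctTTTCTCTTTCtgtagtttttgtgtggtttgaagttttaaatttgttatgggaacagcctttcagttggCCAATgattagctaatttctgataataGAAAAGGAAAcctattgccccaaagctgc
Cyba: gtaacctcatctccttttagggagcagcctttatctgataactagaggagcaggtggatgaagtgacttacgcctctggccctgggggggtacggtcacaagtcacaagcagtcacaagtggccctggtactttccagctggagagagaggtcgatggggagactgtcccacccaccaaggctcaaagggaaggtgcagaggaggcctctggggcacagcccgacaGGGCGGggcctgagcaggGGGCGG
Sod2: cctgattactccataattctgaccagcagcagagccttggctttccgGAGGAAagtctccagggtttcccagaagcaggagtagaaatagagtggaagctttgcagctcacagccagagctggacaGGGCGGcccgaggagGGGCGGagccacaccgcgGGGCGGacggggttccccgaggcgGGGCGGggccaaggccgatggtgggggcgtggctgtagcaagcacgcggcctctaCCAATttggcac
Sod1: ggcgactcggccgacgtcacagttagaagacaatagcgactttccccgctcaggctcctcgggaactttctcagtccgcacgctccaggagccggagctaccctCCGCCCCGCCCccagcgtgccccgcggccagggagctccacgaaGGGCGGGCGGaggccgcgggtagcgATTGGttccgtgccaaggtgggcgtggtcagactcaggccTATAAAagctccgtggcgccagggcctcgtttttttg

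The Cybb window was the poorest in G and C of the 4, at 34.0%, against 60.0% for Cyba, 63.6% for Sod2, 66.4% for Sod1 and a median of 52.4% over the 32851 RefSeq windows of the same kind. It held 3 matches to the interferon-stimulated response element letters, the first starting 168 bases before the start site, with an AP-1 match and a CCAAT match. At least 1 match to the interferon-stimulated response element letters was found in 2.98% of all windows, to TGANTCA in 6.75% and to CCAAT in 33.8%. The Sod2 window held 4 GC boxes, a CCAAT match 12 bases before the start site and a PU.1 match. The Sod1 window also held 4 GC boxes, some of which overlap, with a CCAAT match and a TATAAA match, and the Cyba window held 2 GC boxes. GC boxes occurred in 32.7% of all windows, GAGGAA in 23.3% and TATAAA in 12.4%. The NF-kappaB letters, found in 1.41% of all windows, were in none of these 4, which says nothing about binding farther away or to other letters. The letters searched are narrow: the Sod2 window holds ggggttcccc, which resembles them but does not match and so stays in lower case. The GENCODE genes of Cybb and Sod2 reach upstream of their windows, and the last 22 bases of the Sod2 window and the last 8 of the Sod1 window fall in exons of the principal GENCODE transcripts of these genes. RefSeq windows were found for 5 of the 8 genes, these 4 and Ncf1, and not for Ncf4, Rac1 and Rac2. The Ncf1 window, not shown, also held 1 match to the interferon-stimulated response element letters, at -82 from the start site, and 1 GC box.

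Values are TPM, a unit that corrects reads for the length of the gene and sums to a fixed total per library. Reads recovered from the TPM numbered 25457016 to 30762755 per library, and each of the 8 genes rested on 1394 reads (Sod2, Untr) or more in every library. Of the genes listed, 12755 were expressed enough to be tested with limma on log2(TPM + 1), and p-values were adjusted over all of them by the Benjamini-Hochberg method. A gene was called if its adjusted p-value was under 0.01 and its absolute log2 fold change reached 2 against untreated BMDMs or 0.7 between Met + LPS and LPS. With 2 libraries a group no exact permutation test can reach a two-sided p-value below 0.333, so limma's p-values rest on the spread shared across genes. Before any rescaling, the tested gene in the middle of the order differed by -0.48 (log2) between LPS and Untr, by -0.48 between Met + LPS and Untr and by -0.03 between Met + LPS and LPS. The log2 fold change of each of the 8 genes against untreated BMDMs is therefore also given after rescaling. For this the libraries were rescaled by the median ratio over genes, which brings that median near 0. Values of other genes are in TPM as deposited unless rescaling is named.

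The libraries had the markers of macrophages. All 8 genes of that list (Adgre1, Csf1r, Cd68, Itgam, Fcgr1, Mertk, Cd14 and Lyz2) reached 1 TPM, and their summed level was 44621 to 46599 TPM in Untr, 37412 to 37903 in LPS and 30877 to 30948 in Met + LPS. Most of this sum was Lyz2, with means of 34912, 26835 and 21292 TPM, and the other markers did not all follow it. Cd14, the LPS co-receptor, rose by 1.53 on the log2 scale with LPS (adjusted p = 1.3e-06 in limma), or 2.06 after rescaling. From LPS to Met + LPS, 6 of the 8 markers were lower by the adjusted p-value and 0 were higher. Of all tested genes, 18.0% were lower and 14.5% were higher. Fcgr1 (-1.14, adjusted p = 5.1e-05 in limma) was the only marker called, where 8.28% of all tested genes were. Cd68 and Csf1r were at 0.00 and -0.07 (adjusted p = 0.967 and 0.200 in limma). Of 8 neutrophil markers, 4 reached 1 TPM, and the list summed to 28.1 to 31.2, 24.8 to 26.4 and 41.1 to 42.7 TPM in the same order, with the defining marker Ly6g at 0 in 5 of 6 libraries. Neutrophils also make the oxidase, so the higher neutrophil sum in Met + LPS stands beside every oxidase value below, and its part in them was not tested. The 4 B-cell markers summed to 2.63 to 3.18 TPM in Untr, 1.47 to 1.55 in LPS and 0.766 to 0.777 in Met + LPS, most of it Cd79b. The 4 dendritic-cell markers summed to 0.537 to 0.676, 2.20 to 2.40 and 2.12 to 2.80 TPM, and 2 of them, Zbtb46 and Xcr1, rose with LPS by 1.04 and 0.67 on the log2 scale (adjusted p = 7.5e-04 and 0.0067 in limma). Both sums thus moved with the groups at low levels, and their part in the values below was not tested. No marker of T cells, erythroid cells or fibroblasts reached 1 TPM. In bulk RNA, fewer cells of a type and less RNA per cell cannot be told apart.

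Sod2 (ENSMUSG00000006818, chromosome 17, 13006846 to 13040063, plus strand) showed the widest change of the 8 genes. It was at 19.3 and 19.4 TPM in the untreated libraries, at 209 and 208 TPM after LPS and at 140 and 142 TPM in Met + LPS. The 3 groups did not overlap, and both Met + LPS libraries lay between the other 2 groups. Sod2 rose 10.7-fold with LPS by the ratio of mean TPM, which is 3.36 ± 0.03 (SE) on the log2 scale (adjusted p = 3.2e-09 in limma) or 3.87 after rescaling. Of the tested genes, 190 had a larger log2 fold change. In Met + LPS it fell by 0.56 on the log2 scale from its level in LPS (95% interval -0.64 to -0.49, adjusted p = 4.6e-05 in limma), or 32.5% in mean TPM, and 1001 tested genes had a lower value. This passed the p-value cut-off and missed the fold cut-off of 0.7. Between Met + LPS and untreated BMDMs 64.2% of the TPM difference made by LPS was left, or 83.2% on the log2(TPM + 1) scale. Sod2 was called in both comparisons with untreated BMDMs. About 73.3% of its 31-mers occur in no other gene.

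Sod1 (ENSMUSG00000022982, chromosome 16, 90220754 to 90226329, plus strand) did not follow Sod2. It was at 153 and 150 TPM in Untr, 119 and 108 in LPS and 110 and 108 in Met + LPS, and the LPS and Met + LPS libraries overlapped. Its log2 fold change with LPS was -0.42 in TPM as deposited (adjusted p = 2.2e-04 in limma), close to the -0.48 of the median gene, and it turned to 0.10 after rescaling (adjusted p = 0.10). Against LPS, Met + LPS gave -0.05 (95% interval -0.17 to 0.07, adjusted p = 0.417 in limma). Within a library, where scaling has no part, the ratio of Sod2 to Sod1 in TPM was 0.126 and 0.130 in Untr, 1.76 and 1.93 in LPS and 1.27 and 1.31 in Met + LPS. The groups did not overlap in this ratio. Whether it lies above 1 depends on the lengths used, as described with the order of levels below.

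**Figure D1:**
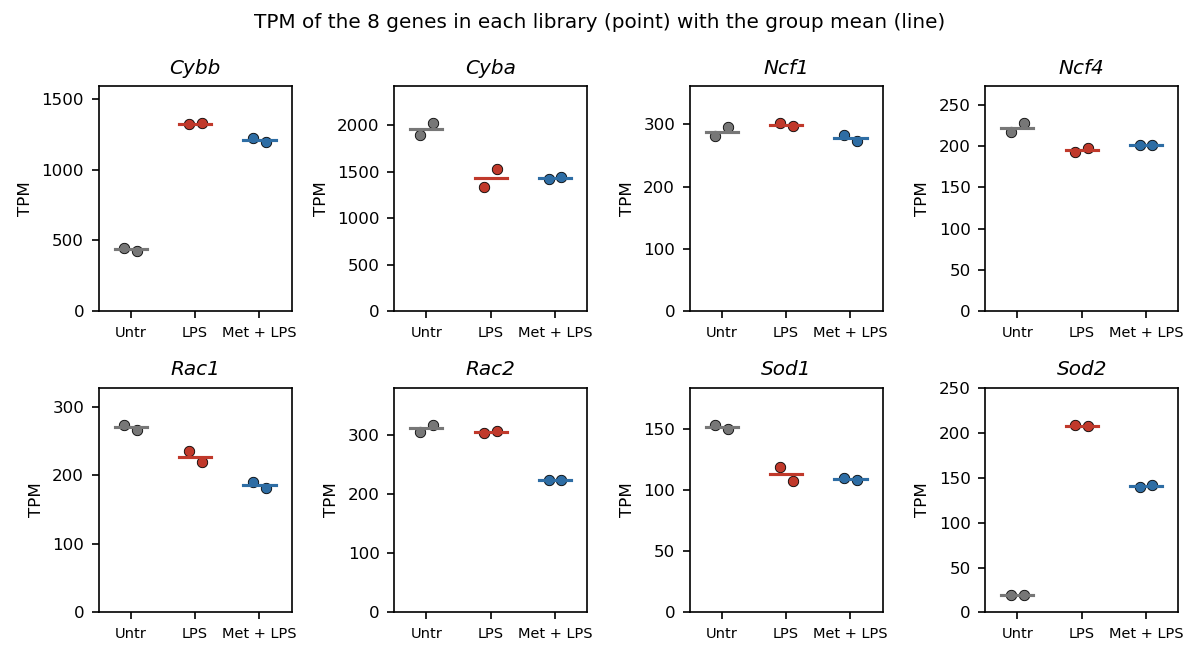
TPM of the 8 genes in each of the 6 libraries (points) with the group mean (line), each axis starting at 0. Sod2 goes from 19.3 and 19.4 TPM in Untr to 209 and 208 in LPS and 140 and 142 in Met + LPS, Cybb stays near its LPS level in Met + LPS, and Rac2 is at its lowest in Met + LPS.

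The membrane subunits moved apart. Cybb (ENSMUSG00000015340, chromosome X, 9435252 to 9487771, minus strand), which encodes the electron-carrying gp91phox, was at 443 and 428 TPM in Untr, 1326 and 1328 in LPS and 1223 and 1200 in Met + LPS. Both LPS libraries lay above both untreated libraries, and the Met + LPS libraries lay just below those of LPS without overlap. Cybb rose 3.05-fold with LPS, which is 1.61 ± 0.03 (SE) on the log2 scale (adjusted p = 6.0e-08 in limma). This was under the fold cut-off of 2 in TPM as deposited and past it after rescaling, at 2.13. Metformin pretreatment gave a log2 fold change of -0.13 against LPS alone (95% interval -0.21 to -0.06, adjusted p = 0.0137 in limma), or 8.71% lower in mean TPM. With limma voom on recovered reads the adjusted p-value of this difference was 7.5e-04. Met + LPS kept 87.0% of the TPM difference made by LPS.

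Cyba (ENSMUSG00000006519, chromosome 8, 122424776 to 122432930, minus strand) encodes p22phox, without which gp91phox is unstable. It was the most abundant of the 8 genes in every library, at 1894 and 2021 TPM in Untr, 1338 and 1530 in LPS and 1422 and 1439 in Met + LPS. The Met + LPS libraries lay inside the range of the LPS libraries. With LPS its log2 fold change was -0.45 in TPM as deposited (adjusted p = 6.3e-04 in limma) and 0.08 after rescaling (adjusted p = 0.356), so that only its place close to the median gene is common to both scales. Met + LPS differed from LPS by 0.00 (log2) with a 95% interval of -0.16 to 0.16. The ratio of Cybb to Cyba within a library was 0.234 and 0.212 in Untr, 0.991 and 0.868 in LPS and 0.860 and 0.834 in Met + LPS. It was 4.17-fold higher in LPS than in Untr by the group means, and the difference between LPS and Met + LPS was about as large as the spread of the LPS libraries (SD 0.087, n = 2).

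The cytosolic subunits Ncf1 and Ncf4 changed little. Ncf1 (ENSMUSG00000015950, chromosome 5, 134220053 to 134229625, minus strand) encodes p47phox, which carries the cytosolic complex to the membrane once phosphorylated. It was at 281 and 296 TPM in Untr, 302 and 297 in LPS and 284 and 274 in Met + LPS. The LPS libraries lay slightly above all others, and those of Untr and Met + LPS overlapped. The log2 fold change with LPS was 0.05 in TPM as deposited (adjusted p = 0.215 in limma), which is 0.54 above that of the median gene, and 0.58 after rescaling (adjusted p = 1.5e-05). Met + LPS differed from LPS by -0.10 on the log2 scale (adjusted p = 0.0653 in limma). Of the exon bases of Ncf1, 11.1% overlap Gtf2ird2 on the other strand.

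Ncf4 (ENSMUSG00000071715, chromosome 15, 78244801 to 78262580, plus strand) encodes p40phox, which binds the phosphoinositide of phagosome membranes. It was at 217 and 227 TPM in Untr, 193 and 197 in LPS and 202 and 201 in Met + LPS. Untr was highest and LPS lowest, without overlap. With LPS its log2 fold change was -0.19 in TPM as deposited (adjusted p = 0.0021 in limma) and turned to 0.34 after rescaling (adjusted p = 1.7e-04). As deposited, the difference had an adjusted p-value of 0.0207 without Untr replicate 2 and 0.0128 without LPS replicate 1. From LPS to Met + LPS the log2 fold change was 0.04 (95% interval -0.04 to 0.13, adjusted p = 0.341 in limma). The ratio of Ncf1 to Ncf4 was 1.29 and 1.30 in Untr, 1.56 and 1.51 in LPS and 1.41 and 1.36 in Met + LPS, and no group overlapped another.

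Metformin pretreatment went with lower levels of both Rac genes. Rac2 (ENSMUSG00000033220, chromosome 15, 78559167 to 78572783, minus strand) encodes the Rac GTPase largely confined to blood cells. It was at 305 and 316 TPM in Untr, 304 and 306 in LPS and 223 and 223 in Met + LPS. The Untr and LPS libraries overlapped, and both Met + LPS libraries lay well below them. From LPS to Met + LPS, Rac2 fell by 0.45 on the log2 scale (95% interval -0.53 to -0.37, adjusted p = 9.9e-05 in limma), or 26.9% in mean TPM. Rescaling left this at -0.44. With LPS alone its log2 fold change was -0.03 in TPM as deposited (adjusted p = 0.461 in limma) and turned to 0.50 after rescaling (adjusted p = 1.4e-05), since the median gene was at -0.48.

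Rac1 (ENSMUSG00000001847, chromosome 5, 143503634 to 143528036, minus strand) encodes the ubiquitous Rac GTPase. It was at 274 and 267 TPM in Untr, 235 and 219 in LPS and 191 and 182 in Met + LPS, so that no group overlapped another. From LPS to Met + LPS it fell by 0.29 on the log2 scale (95% interval -0.40 to -0.18, adjusted p = 0.00254 in limma). The adjusted p-value was 0.0110 without LPS replicate 1 and 0.0165 without Met + LPS replicate 2, both above the cut-off of 0.01. With LPS the log2 fold change was -0.25 in TPM as deposited (adjusted p = 0.0018 in limma, 0.0125 without Untr replicate 1) and turned to 0.28 after rescaling (adjusted p = 0.0014). Of the exon bases of Rac1, 2309 (51.4%) overlap Daglb on the other strand. Daglb was at 57.1 and 59.7 TPM in Untr, 27.1 and 26.7 in LPS and 26.3 and 22.3 in Met + LPS. Whether the authors' counting used strand is not given in the sources used here, so reads of the shared bases cannot be told apart, and their part in the Rac1 differences was not tested. The ratio of Rac2 to Rac1 was 1.11 and 1.19 in Untr, 1.29 and 1.40 in LPS and 1.17 and 1.23 in Met + LPS.

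**Figure D2:**
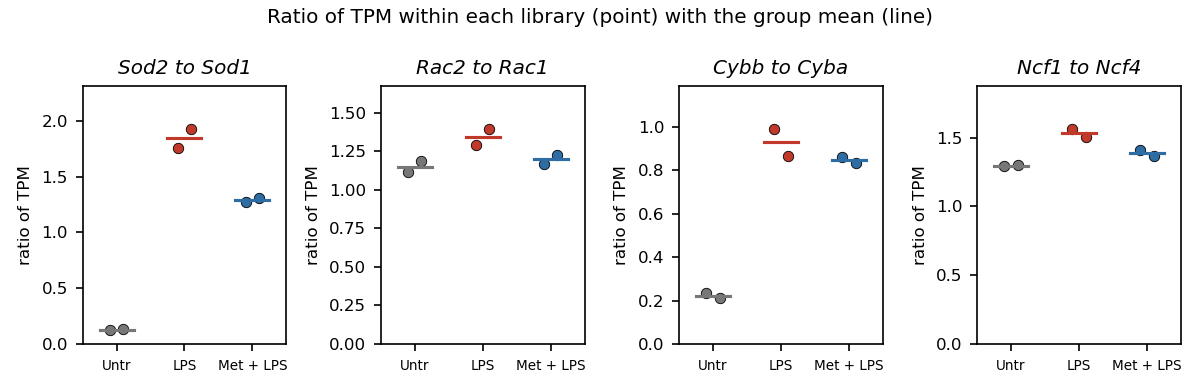
Ratio of TPM between partner genes within each library (points) with the group mean (line), each axis starting at 0. Sod2 to Sod1 goes from 0.126 and 0.130 in Untr to 1.76 and 1.93 in LPS and 1.27 and 1.31 in Met + LPS, and Cybb to Cyba from 0.234 and 0.212 to 0.991 and 0.868 and then 0.860 and 0.834, while Rac2 to Rac1 and Ncf1 to Ncf4 stay between 1.11 and 1.56.

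Between LPS and untreated BMDMs, 1 of the 8 genes was called, Sod2, which was higher in LPS, where 3.72% of all tested genes were called as higher. By the adjusted p-value alone, 2 genes (Cybb and Sod2) were higher and 4 (Cyba, Ncf4, Rac1 and Sod1) were lower in TPM as deposited, against 16.2% and 60.1% of all tested genes. After rescaling, 6 genes (Cybb, Ncf1, Ncf4, Rac1, Rac2 and Sod2) were higher and 0 were lower, against 30.6% and 27.6% of all tested genes. The direction of the 4 lower genes thus belonged to the scale: relative to the median gene they lay 0.03 (Cyba), 0.06 (Sod1), 0.23 (Rac1) and 0.29 (Ncf4) above it on the log2 scale. The LPS and untreated libraries did not overlap for 7 of the 8 genes, and for 91.6% of all tested genes. The median log2 fold change of the 8 genes was -0.11, beside -0.48 over all tested genes.

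Between Met + LPS and LPS, limma called 0 of the 8 genes, as did limma voom on recovered reads, beside 8.28% of all tested genes called by limma in either direction. At an unadjusted p-value under 0.05 there were 5, against 54.9% of all tested genes. By the adjusted p-value alone, 3 genes were lower (Rac1, Rac2 and Sod2) and none was higher, against 18.0% and 14.5% of all tested genes. Rescaling gave the same 3 genes, beside 17.4% of all tested genes that were lower and 15.6% that were higher. Libraries of the 2 groups did not overlap for 6 of the 8 genes, and for 73.8% of all tested genes. The median log2 fold change of the 8 genes was -0.12, beside -0.03 over all tested genes.

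**Figure D3:**
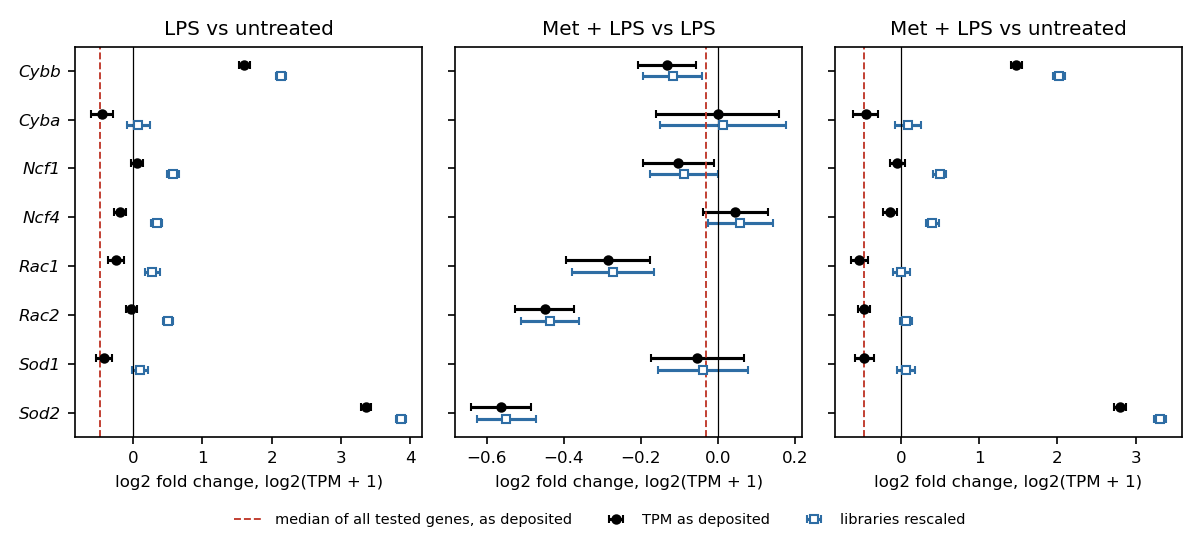
Log2 fold change of each gene on the log2(TPM + 1) scale with its 95% interval from limma, in TPM as deposited (filled circles) and after rescaling by the median ratio (open squares); the dashed line is the median of all tested genes as deposited. Against untreated BMDMs rescaling moves every gene up, and Cyba, Ncf4, Rac1, Rac2 and Sod1 cross 0 with LPS, whereas between Met + LPS and LPS the scales differ little and Sod2, Rac2 and Rac1 lie farthest below 0.

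Between Met + LPS and untreated BMDMs, a comparison that shares its libraries with the others, Sod2 was called as higher, where 3.18% of all tested genes were. Its log2 fold change was 2.80 (adjusted p = 8.5e-09 in limma), and that of Cybb was 1.47 (adjusted p = 1.1e-07 in limma). After rescaling they were 3.32 and 2.01, so that Cybb also passed the fold cut-off of 2. In TPM as deposited, these 2 genes were higher by the adjusted p-value alone, against 16.3% of all tested genes. Another 5 were lower (Cyba, Ncf4, Rac1, Rac2 and Sod1), against 58.8%. The log2 fold changes of these 5 in TPM as deposited were -0.45, -0.14, -0.54, -0.48 and -0.47, and after rescaling all turned to values from 0.00 (Rac1) to 0.40 (Ncf4). That of Ncf1 turned from -0.05 to 0.49. Ncf4 had an adjusted p-value of 0.00766 as deposited and of 0.0110 to 0.0684 when any single library was left out. After rescaling, 4 genes (Cybb, Ncf1, Ncf4 and Sod2) were higher by the adjusted p-value and 0 were lower, beside 33.4% of all tested genes that were higher. Libraries of these groups did not overlap for 7 of the 8 genes and for 90.7% of all tested genes. The median log2 fold change was -0.30 over the 8 genes and -0.48 over all tested genes.

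**Figure D4:**
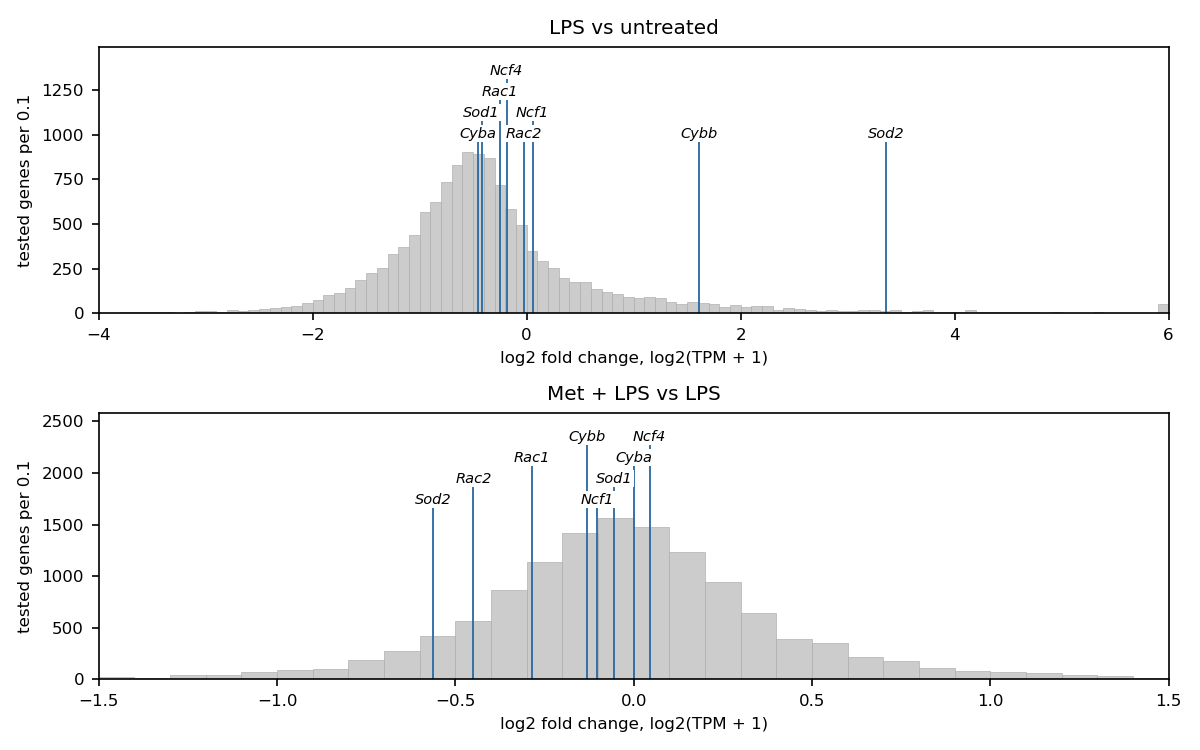
Number of tested genes per 0.1 of log2 fold change (grey bars) in TPM as deposited, with the 8 genes marked by lines; the axes run from -4 to 6 for LPS vs untreated and from -1.5 to 1.5 for Met + LPS vs LPS. With LPS, 6 of the 8 genes lie near the bulk of genes around the median of -0.48 or to its right, with Cybb (1.61) and Sod2 (3.36) in the right tail, and in the lower panel Sod2 (-0.56) and Rac2 (-0.45) lie in the left flank.

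By TPM, which compares genes per length, the order in Untr was Cyba, Cybb, Rac2, Ncf1, Rac1, Ncf4, Sod1 and Sod2, from a mean of 1958 TPM to 19.4 TPM. In LPS it was Cyba, Cybb, Rac2, Ncf1, Rac1, Sod2, Ncf4 and Sod1. In Met + LPS Ncf1 stood before Rac2 and Ncf4 before Rac1, with Sod2 and Sod1 last. No 2 neighbours in these orders overlapped between their libraries. These orders depend on the gene length used, most of all for Sod1. The 3970 annotated exon bases of Sod1 include a long retained intron, while its principal transcript (GENCODE) has 641 bases. With principal transcript lengths the order became Cyba, Sod1, Cybb, Ncf1, Rac2, Ncf4, Rac1 and Sod2 in Untr, with overlap between Rac2 and Ncf4. It became Cyba, Cybb, Sod1, Ncf1, Sod2, Rac2, Ncf4 and Rac1 in LPS, and Cyba, Cybb, Sod1, Ncf1, Ncf4, Sod2, Rac2 and Rac1 in Met + LPS. Cyba came first and Cybb led the other oxidase genes by either length, while Rac2 lost its place before Ncf1 in Untr and LPS. By that length Sod1 also stood above Sod2 in every group, with means of 940, 701 and 675 in Untr, LPS and Met + LPS against 33.1, 356 and 240 for Sod2. The levels of Sod1, Sod2, Ncf1, Ncf4 and the Rac genes can therefore not be ranked firmly from these values, whereas the change of their ratios between groups does not depend on length.

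The 5 protein-coding genes whose pattern lay nearest to that of Sod2 over the 6 libraries were Rhof, Parp14, Fas, Slfn9 and Gpr85, by Euclidean distance of centred log2(TPM + 1) among 10888 genes. Rhof, at a distance of 0.086, had mean levels of 4.72, 56.2 and 38.9 TPM in Untr, LPS and Met + LPS. Parp14 had 96.5, 1045 and 725 TPM. For Cybb they were Gm6904, Itga5, Ptpn12, Ifi207 and Marcks, at distances from 0.092 to 0.111. Itga5, an integrin subunit, had mean levels of 156, 494 and 457 TPM. Marcks, a substrate of protein kinase C, had 267, 780 and 694 TPM.

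Relatives of the oxidase were mostly at or near 0. Of 11 such genes (Cybc1, Hvcn1, Nox1, Nox3, Nox4, Noxo1, Noxa1, Duox1, Duox2, Duoxa1 and Duoxa2), 3 were tested, and Nox3, Nox4, Noxa1 and Duox2 were listed at 0 TPM in every library. Nox1, the catalytic subunit best known from colon epithelium, was at 0.318 and 0.549 TPM in Untr, 6.16 and 8.08 in LPS and 6.40 and 6.01 in Met + LPS. With LPS it rose by 2.50 on the log2 scale (adjusted p = 7.3e-06 in limma), or 2.74 after rescaling. It was the only gene of the list called, where 3.72% of all tested genes were called as higher. In LPS its mean level was 7.12 TPM, against 1327 TPM for its homologue Cybb. Cybc1, a chaperone that the flavocytochrome needs, is named here after its values were seen. It was at 74.4 and 76.0 TPM in Untr, 28.5 and 25.6 in LPS and 23.4 and 23.4 in Met + LPS, and with LPS it fell by 1.44 on the log2 scale (adjusted p = 1.5e-06 in limma), or -0.93 after rescaling. Hvcn1, a proton channel, also named after its values were seen, was lower with LPS by the adjusted p-value, at -0.29, and above 0 after rescaling, at 0.23. From LPS to Met + LPS limma passed 0 of these 3 genes by the adjusted p-value, by which 14.5% of all tested genes were higher and 18.0% lower. An unadjusted p-value under 0.05 was found for 2 of them, against 54.9% of all tested genes. Voom on recovered reads passed 1 by the adjusted p-value.

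All 13 genes of the Rac and Rap switch, which holds exchange factors, GTPase-activating proteins and inhibitors, were tested. With LPS, 1 rose and 9 fell by the adjusted p-value, against 16.2% and 60.1% of all tested genes. After rescaling 7 were higher and 2 lower, against 30.6% and 27.6%. Arhgap25, a GTPase-activating protein that switches Rac off, was at 137 and 136 TPM in Untr, 11.2 and 11.8 in LPS and 18.4 and 17.0 in Met + LPS. With LPS it fell by 3.46 on the log2 scale (adjusted p = 2.1e-08 in limma), or -2.95 after rescaling, and was the only gene of the list called, where 2.37% of all tested genes were called as lower. From LPS to Met + LPS, 2 rose and 7 fell by the adjusted p-value, against 14.5% and 18.0% of all tested genes, and after rescaling 2 and 6, against 15.6% and 17.4%. The median log2 fold change of the list was -0.29, beside -0.03 over all tested genes, and 2 were called, where 8.28% of all were. Voom on recovered reads called 3 of the list, and 1415 of its 12750 tested genes. Rac3, the third Rac GTPase, was at 18.5 and 19.8 TPM in LPS and 6.04 and 7.69 in Met + LPS and fell by 1.37 on the log2 scale (adjusted p = 1.3e-04 in limma). Tiam1, an exchange factor that loads Rac with GTP, was at 7.26 and 8.06 TPM in LPS and 3.29 and 3.16 in Met + LPS and fell by 1.03 (adjusted p = 1.0e-04 in limma). All 3 Rac genes thus had lower levels with metformin pretreatment than with LPS alone.

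Of 8 kinases that act on the cytosolic subunits, 6 were tested and limma called 0 in any comparison, as did voom on recovered reads. Of the 12755 tested genes, limma called 776 with LPS, 1056 between Met + LPS and LPS and 682 between Met + LPS and untreated BMDMs. At an unadjusted p-value under 0.05 there were 4 kinases with LPS, against 84.8% of all tested genes, and 5 between Met + LPS and LPS, against 54.9%. With LPS, 1 rose and 3 fell by the adjusted p-value, against 16.2% and 60.1% of all tested genes. After rescaling 4 were higher and 1 lower, against 30.6% and 27.6%. From LPS to Met + LPS, 1 rose and 1 fell, against 14.5% and 18.0%. These were Prkcb, a protein kinase C, at 0.36, and Mapk14, the p38 kinase, at -0.26, both named after their values were seen.

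Of 16 genes that handle superoxide and peroxide, 15 were tested. Sod3, the extracellular dismutase, stayed at 0.151 TPM or less in every library and was not tested. With LPS, 3 rose and 9 fell by the adjusted p-value, close to the 16.2% and 60.1% of all tested genes, and after rescaling 8 were higher and 1 lower, against 30.6% and 27.6%. Here limma called 0, as did voom, where limma called 3.72% of all tested genes as higher and 2.37% as lower. An unadjusted p-value under 0.05 was found for 12 genes of the list, against 84.8% of all tested genes. The 3 that rose, named after their values were seen, were Txnrd1 (1.38), Prdx5 (1.15) and Txn1 (0.44). In Met + LPS against LPS, 5 rose and 6 fell on either scale, against 14.5% and 18.0% of all tested genes as deposited. Prdx1, an abundant cytosolic peroxiredoxin, was at 1406 and 1344 TPM in LPS and 2296 and 2614 in Met + LPS. It rose by 0.83 on the log2 scale (adjusted p = 1.3e-04 in limma) and was the only gene of the list called, where 8.28% of all tested genes were. The peroxide-removing enzymes went both ways, and those other than Prdx1 are named after their values were seen. Catalase (Cat) rose by 0.57 (adjusted p = 8.2e-04 in limma) and Prdx6 by 0.30, as did the reductases Txnrd1 (0.46) and Gsr (0.25). Lower, like Sod2, were Prdx2 (-0.58, adjusted p = 1.6e-04 in limma), Gpx1 (-0.52, adjusted p = 2.3e-04), Prdx5 (-0.33) and Prdx4 (-0.23), with Ccs, the copper chaperone of Sod1 (-0.51), and the reductase Txnrd2 (-0.33).

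All 5 genes of NADPH supply were tested. With LPS, 0 rose and 4 fell in TPM as deposited, against 16.2% and 60.1% of all tested genes. After rescaling 1 was higher and 1 lower, against 30.6% and 27.6%. The median log2 fold change of the 5 was -0.41, beside -0.48 over all tested genes. Between Met + LPS and LPS, 1 rose and 2 fell, against 14.5% and 18.0%. Idh1, the cytosolic NADP-dependent isocitrate dehydrogenase, was at 324 and 330 TPM in Untr, 196 and 188 in LPS and 109 and 97.9 in Met + LPS. It fell by 0.89 on the log2 scale from LPS to Met + LPS (adjusted p = 5.3e-05 in limma). In that comparison it was the only gene of the list called, where 8.28% of all tested genes were.

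**Figure D5:**
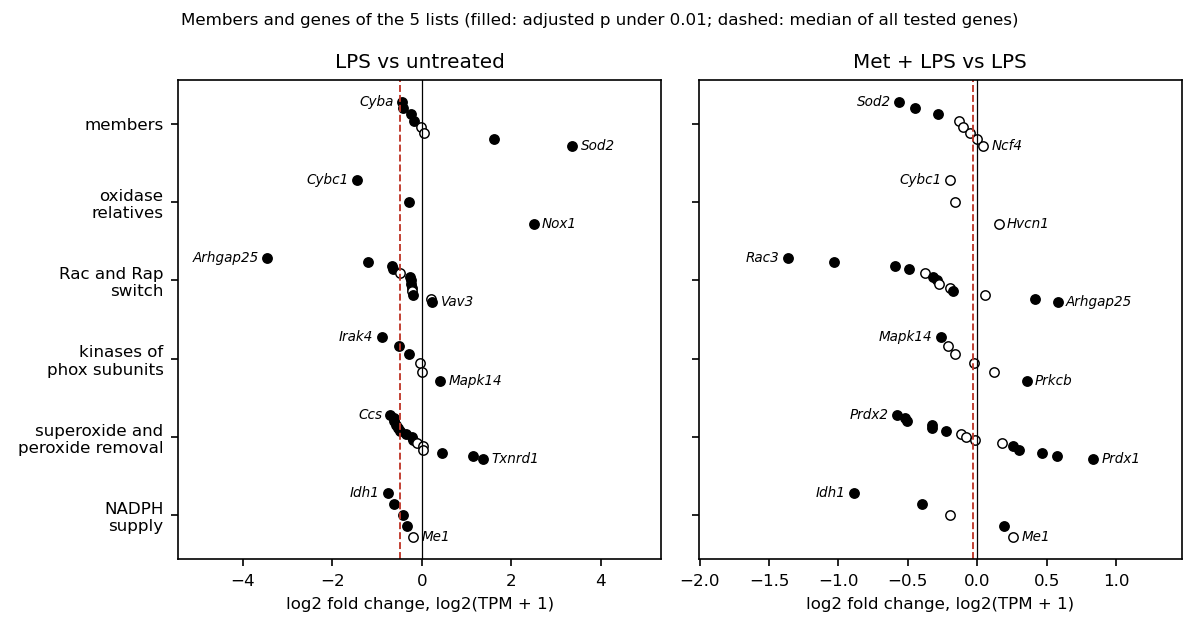
Log2 fold change, on the log2(TPM + 1) scale in TPM as deposited, of the 8 genes and of the tested genes of the 5 lists (circles, filled where the adjusted p-value is under 0.01), with the lowest and highest gene of each list named; the dashed line is the median of all tested genes. Arhgap25 (-3.46), Nox1 (2.50) and Sod2 (3.36) stand apart with LPS, and Rac3 (-1.37), Tiam1, Idh1 (-0.89) and Prdx1 (0.83) between Met + LPS and LPS.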

How the data were processed

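The 8 genes and the lists of related genes and markers were chosen with earlier results of these data known. The authors deposited TPM for 54532 genes in 6 libraries, without pooling replicates. Per the study's methods and the submitters' processing notes, single-end reads were aligned to GRCm38 with STAR 2.6.1d and counted with featureCounts of Subread 1.6.3, with SAMtools 1.9 for file handling. The product of TPM and GENCODE vM21 exon length was divided by a step estimated for each library. The result came within 0.02 reads of a whole number for 96.1% to 96.3% of the values above 0. All values, also the rest, were rounded to whole numbers and taken as reads. Intervals cover the spread that limma estimates.

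Genes with 1 TPM or more in 2 or more libraries were fitted with limma 3.58.1 in R 4.3.3 (lmFit, eBayes with a trend) on log2(TPM + 1), which understates changes of low genes. All 6 libraries shared a fit without covariates (3 residual degrees of freedom), and p-values were adjusted over 12755 genes. The cut-offs are those in the study's methods, and that for LPS was also used for Met + LPS vs untreated. The fits were tested on simulated data. Tables and plots were made with Python 3.11.15, pandas 2.3.3, numpy 2.4.6 and matplotlib 3.10.9.

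The text names the 8 genes, at most the 4 most changed called genes of each list, close relatives that were not tested, and the 5 nearest patterns to Sod2 and Cybb. Other genes are marked as named after their values were seen. A further gene of the lists is not reported here. Of the gene identifiers, 54495 matched GENCODE, whose coordinates equal those in the files for the 8 genes. Promoter sequences are from RefSeq. Alternatives were another pseudocount, other filters, rescaling, a fit of the compared groups alone, a replicate block, eBayes without a trend, other cut-offs, limma voom on recovered reads, and leaving out each library. Voom with rescaling was added after seeing the data.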

Additional observations from a re-analysis of the deposited data

How the results depend on the processing

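The number of genes called among the 8 was 1 (LPS vs untreated), 0 (Met + LPS vs LPS) and 1 (Met + LPS vs untreated), and leaving out each library in turn gave the same 3 numbers. It became 2 in both comparisons with untreated BMDMs after median-ratio rescaling, with voom and rescaling, and with 1 as the cut-off on the log2 fold change, Cybb being the second gene each time. With no minimum fold change it was 6, 3 and 7, where 9734, 4156 and 9576 of the 12755 tested genes were called. Over all genes, a pseudocount of 0.1 called 1512 (LPS vs untreated) and 1457 (Met + LPS vs untreated) in place of 776 and 682, voom 1596 and 1564, and a cut-off of 1 gave 3556 and 3714, and 455 in place of 1056 for Met + LPS vs LPS. Rescaling changed the split for LPS vs untreated from 474 higher and 302 lower to 663 and 129, and for Met + LPS vs untreated from 406 and 276 to 571 and 98.

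Directions that turned did so mostly with the scale, by construction of the rescaling. For LPS vs untreated, rescaling and voom with rescaling gave log2 fold changes of 0.075 and 0.075 (Cyba), 0.337 and 0.339 (Ncf4), 0.276 and 0.277 (Rac1), 0.499 and 0.500 (Rac2) and 0.102 and 0.103 (Sod1). For Met + LPS vs untreated they gave 0.089 and 0.089 (Cyba), 0.491 and 0.493 (Ncf1), 0.395 and 0.397 (Ncf4), 0.0030 and 0.0021 (Rac1), 0.063 and 0.063 (Rac2) and 0.062 and 0.062 (Sod1). For Met + LPS vs LPS, Cyba, at about 0, turned to 0.014 and 0.014, and leaving out single libraries gave -0.097 to 0.096, with 0.0083 without Met + LPS replicate 1. Sod1 lay between -0.123 and 0.016 there, above 0 without LPS replicate 1, and Rac2 between -0.054 and 0.00071 for LPS vs untreated, above 0 without Untr replicate 2. Leaving out single libraries kept Sod2 within 3.35 to 3.36 with LPS and within -0.57 to -0.55 between Met + LPS and LPS, and Cybb within 1.58 to 1.63 with LPS. Besides the libraries named in the report, Rac1 lost its adjusted p-value between Met + LPS and LPS with no filter (0.0125), with the compared groups alone (0.0126) and without a trend (0.0147), and Rac1 and Ncf4 lost theirs with LPS without a trend (0.0104 and 0.0141). Ncf4 lost its own between Met + LPS and untreated BMDMs with no filter (0.0143), with the compared groups alone (0.0118) and without a trend (0.0362).

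The labels number the replicates 1 and 2 in each group, and the deviations of same-numbered libraries correlated at -0.00, 0.03 and 0.01 over genes. The values thus show no pairing, but they cannot tell whether same-numbered libraries came from the same cells or animal. With the replicate block the numbers called among the 8 genes were again 1, 0 and 1, and over all genes 777, 1044 and 682. The 8 genes had 1394 reads or more in every library.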
